A study of Caenorhabditis elegans with 2 samples.

Results

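The non-coding genes tts-1, C30E1.9, W05H9.3, F40F9.15 and F38E11.11 lie at some of the strongest RNA polymerase II peaks of Caenorhabditis elegans L4 larvae. The 5 names came from the genes at the 20 strongest peaks of the reproducible peak set, so their presence there is how they were chosen and not a result. In the Ensembl release 115 annotation of genome build WBcel235 (ce11 is another name for this assembly), the 5 names matched 6 loci of 46926 annotated genes. The name F38E11.11 is given there to a pair of identical genes, whose transcripts are F38E11.10 and F38E11.11, and each locus is called here by its transcript. The annotation places tts-1, C30E1.9, W05H9.3 and F40F9.15 among 7764 genes of biotype ncRNA, and both copies of the last name among 129 genes of biotype snRNA (small nuclear RNA).

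The study mapped AMA-1, the large subunit of RNA polymerase II, by chromatin immunoprecipitation and sequencing (ChIP-seq) with an ama-1 antibody. All samples came from whole wild-type N2 animals at the L4 larval stage, with the sexes pooled and no further treatment named. There was 1 group with 2 biological replicates, and no other strain, stage or condition, so no contrast between conditions exists. The labels give a fragment size range of 150 to 350 for both libraries. Whole animals were used, so a peak does not show in which cells or in which sex the polymerase was bound. The authors deposited 30000 peaks for each replicate, 30000 for both replicates pooled, and 2082 that passed an irreproducible discovery rate filter (the IDR set). A peak's summit is its highest point, and its signal value is a score from the authors' peak caller that is used here only to rank peaks within 1 list, rank 1 being the strongest. Ranks in lists of different make-up do not measure a change in occupancy.

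RNA polymerase II transcribes protein-coding genes and also long non-coding RNAs and most spliceosomal snRNAs. At many of its promoters the TATA box, a short DNA element bound by the TATA-binding protein, lies a short fixed distance before the transcription start. Of the genes described here, tts-1 is a long non-coding RNA known for its high level in dauer larvae and in long-lived daf-2 insulin receptor mutants, where it has been found with ribosomes. No function of the other loci is given by the annotation used here beyond their biotype.

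The sequences around the starts of the 4 ncRNA genes are shown first, because all of them carry the same short word at nearly the same place. Each is written 5′ to 3′ on the strand of its gene, from build WBcel235 (ce11) and the RefSeq copy of that genome. Capitals mark TATAAA on the sense strand and, for tts-1, also the reverse complement of GTAAACA, the word bound by FOXO factors. That word lies inside the ncRNA gene F09E10.14 (chrX:1504884-1504998, minus strand), all of which falls within the tts-1 stretch. The stretches are chrX:1504792-1505091 for tts-1 (minus strand), chrX:16929664-16929963 for C30E1.9 (plus strand), chrX:6252024-6252323 for W05H9.3 (plus strand) and chrV:9731262-9731369 for F40F9.15 (minus strand). The first 3 run from 250 bases before the start to 50 bases into the gene. The stretch for F40F9.15 begins 58 bases before the start, since further upstream it would run into an untranslated exon of the opposed gene drap-1.
tts-1: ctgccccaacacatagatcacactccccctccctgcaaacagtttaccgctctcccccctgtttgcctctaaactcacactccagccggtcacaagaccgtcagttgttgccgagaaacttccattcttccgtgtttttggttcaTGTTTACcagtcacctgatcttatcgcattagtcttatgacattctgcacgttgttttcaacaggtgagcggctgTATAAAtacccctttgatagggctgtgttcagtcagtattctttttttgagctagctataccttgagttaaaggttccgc
C30E1.9: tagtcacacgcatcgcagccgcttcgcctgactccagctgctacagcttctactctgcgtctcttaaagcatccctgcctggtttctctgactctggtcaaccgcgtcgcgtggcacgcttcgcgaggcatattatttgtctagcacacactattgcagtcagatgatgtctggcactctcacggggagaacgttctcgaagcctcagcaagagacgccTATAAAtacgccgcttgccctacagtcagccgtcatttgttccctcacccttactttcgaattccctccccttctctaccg
W05H9.3: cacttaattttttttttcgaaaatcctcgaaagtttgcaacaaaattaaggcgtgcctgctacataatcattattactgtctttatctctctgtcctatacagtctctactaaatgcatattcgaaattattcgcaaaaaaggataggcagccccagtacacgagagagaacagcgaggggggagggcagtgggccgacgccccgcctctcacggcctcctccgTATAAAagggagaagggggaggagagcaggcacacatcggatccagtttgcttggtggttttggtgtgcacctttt
F40F9.15: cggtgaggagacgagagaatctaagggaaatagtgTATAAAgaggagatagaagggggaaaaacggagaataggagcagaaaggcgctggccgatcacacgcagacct

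TATAAA began 30 bp before the annotated start of tts-1, 31 bp before that of C30E1.9, 26 bp before that of W05H9.3 and 23 bp before that of F40F9.15. All 4 ncRNA genes thus had the word on the sense strand between 20 and 35 bp before the start. Among all 7758 ncRNA promoters of full length, 87 had it there, which is 1.12%. Of the 314 ncRNA genes whose start had an IDR summit within 500 bp, 12 had it there (3.82%), the 4 genes included. Of the 62 ncRNA genes with 1 of the 208 strongest IDR summits near the start, 7 had it there (11.3%), again with the 4 genes included. Among protein-coding genes the share was 3.59% of 19973 overall and 11.3% of the 97 with 1 of those 208 strongest summits near the start. Over all protein-coding genes a further high bin, from 45 to 41 bp before the annotated start (1.76 places per 100 genes), fell outside this range. The range of 20 to 35 bp was set after the sequences had been seen, so these shares describe the genes and test nothing. A range of 15 to 40 bp also held all 4. Neither snRNA copy had TATAAA in its 300 bases around the start. The word matches a TATA box by its letters only, and factor binding was not measured.

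**Figure D1:**
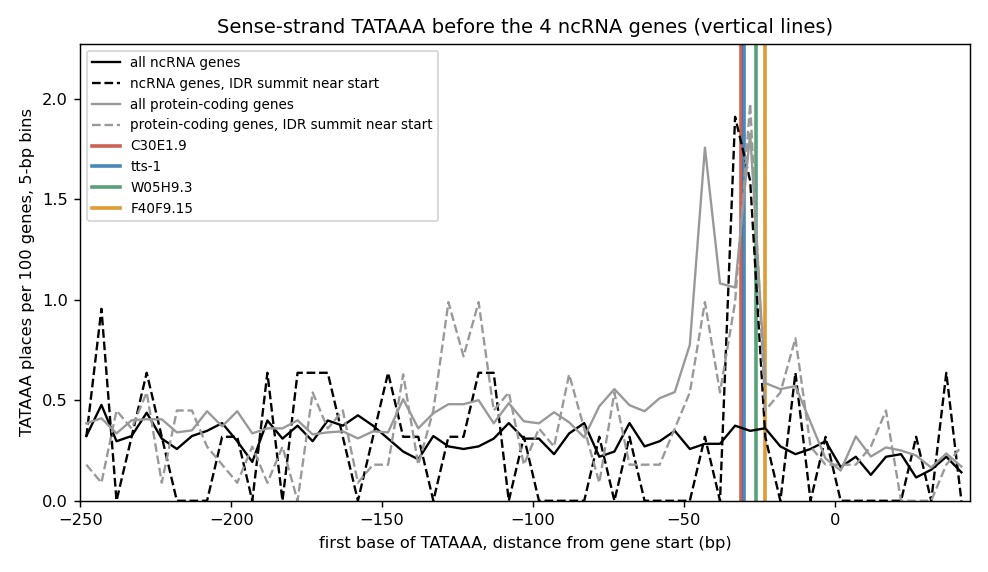
Number of sense-strand TATAAA places per 100 genes in bins of 5 bp (y axis) against the distance of the first base from the annotated gene start in bp (x axis), for all ncRNA genes and all protein-coding genes (solid black and grey) and for those whose start had an IDR summit within 500 bp (dashed). Vertical lines mark the place in C30E1.9, tts-1, W05H9.3 and F40F9.15, from 31 to 23 bp before the start, and the dashed curves reach their highest points (1.91 for ncRNA and 1.98 for protein-coding genes) in the bins from 35 to 26 bp before it.

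Polymerase II peaks lay in the gene or within 500 bp of it at 5 of the 6 loci in the IDR set, where 4.25% of all ncRNA genes, 19.4% of snRNA genes and 8.18% of all genes except piRNA genes had one. The same 5 loci had summits in the pooled list and in replicate 1, and all 6 had one in replicate 2. In the pooled list, replicate 1 and replicate 2 the shares were 29.2%, 32.9% and 23.9% of all ncRNA genes and 32.6%, 30.2% and 46.5% of all snRNA genes. Since the loci were chosen from the IDR peaks, nothing is read from these counts. The loci held 13 IDR summits, 22 pooled summits, 22 in replicate 1 and 21 in replicate 2. Of the 20 strongest IDR peaks, 6 lay at these loci, at ranks 6 and 16 (C30E1.9), 8 (F40F9.15), 13 (tts-1), 14 (W05H9.3) and 18 (F38E11.10). The lowest of these had a signal value of 336. The IDR peak of rank 20 had 311 and the first peak outside the rule, of rank 21, had 307, so no gap in signal marks the threshold.

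**Figure D2:**
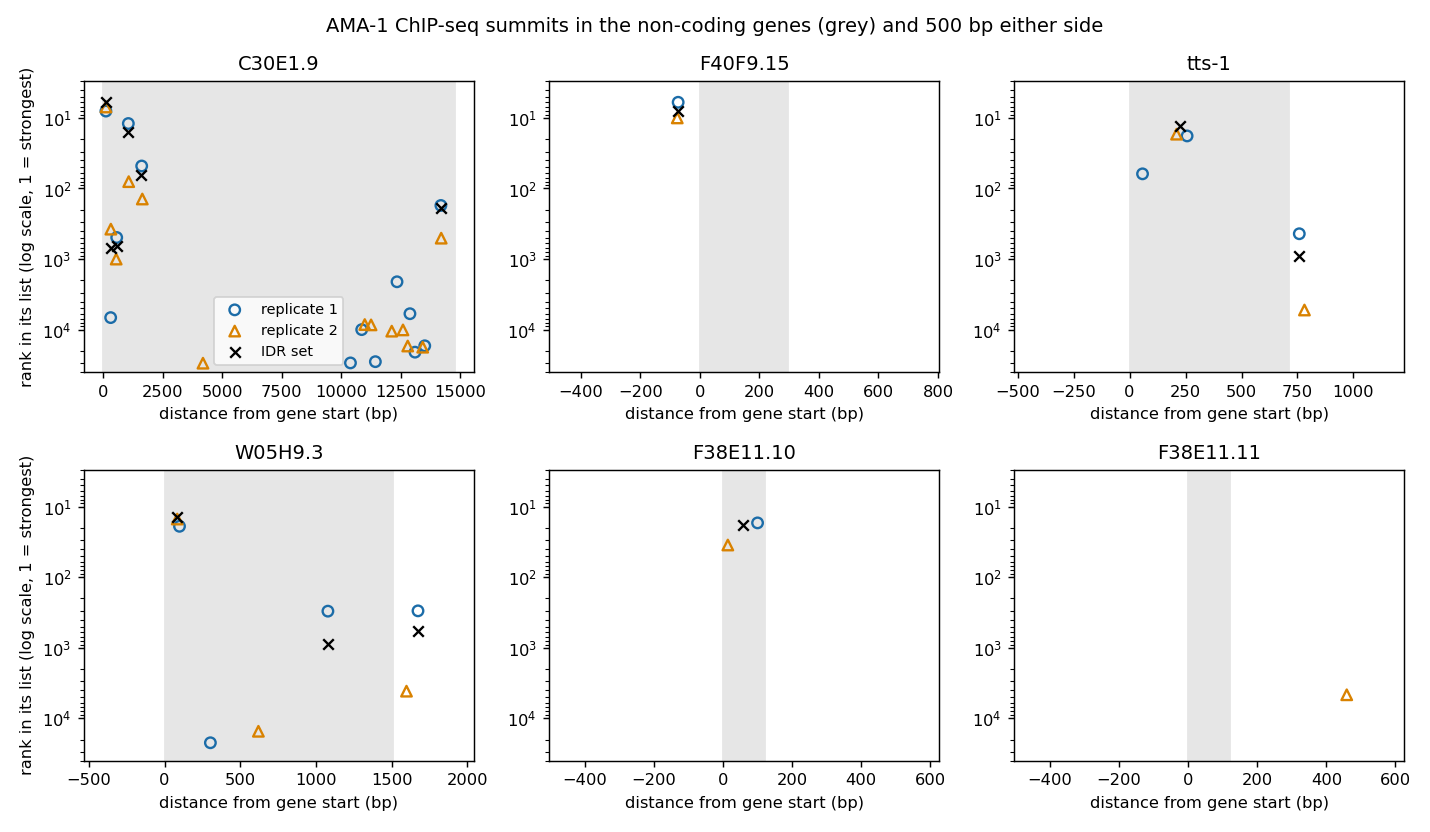
Rank of each summit within its own list (y axis, log scale, strongest at the top) against distance from the gene start in bp (x axis) for replicate 1, replicate 2 and the IDR set, with the gene in grey and 500 bp either side. The strongest summit lies in the first 300 bp or just before the start at C30E1.9, F40F9.15, tts-1, W05H9.3 and F38E11.10, and F38E11.11 has 1 summit, in replicate 2 only, beyond its end.

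C30E1.9 is the longest gene of biotype ncRNA in the annotation, at 14770 bp on chrX:16929914-16944683 (plus strand), where the median ncRNA gene has 140 bp. It held 6 IDR summits, more than any other ncRNA gene, and 14 genes of all classes except piRNA had as many or more, C30E1.9 included. Its strongest summit lay 115 bp inside the start, with a signal value of 547 and rank 6 in the IDR set. There replicate 1 gave 321 (rank 8) and replicate 2 gave 224 (rank 7), with summits 2 bp apart. The second lay 1057 bp inside the start with an IDR signal value of 339 (rank 16). At that place the replicates stood further apart in order, at rank 12 in replicate 1 and rank 80 in replicate 2.

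The other IDR summits of C30E1.9 were at 321, 566 and 1609 bp from the start and, far from these, at 14185 bp. Their IDR ranks were 693, 659, 65 and 187. The annotation gives 3 transcripts from the same start, of which C30E1.9a spans 918 bp, C30E1.9b 1706 bp and C30E1.9c the whole 14770 bp. The summits lay mostly in the shorter models, with 3 of the 6 IDR summits within the extent of C30E1.9a and 5 within that of C30E1.9b. Beyond the end of C30E1.9b, in the stretch that only the longest transcript covers, each of the 3 full lists had 8 summits. In each list only 1 of them was ranked among the 2082 strongest, and the next in replicate 1, at 12342 bp, fell just outside at rank 2100. The summit at 14185 bp had rank 174 in replicate 1 and rank 506 in replicate 2. It lay 584 bp before the gene's end and 582 bp past the end of F52G3.6, a snoRNA gene of 195 bp on the same strand inside C30E1.9. No other annotated gene overlapped the locus. The sequence around the second summit (chrX:16930821-16931120, plus strand, WBcel235, RefSeq) is shown because this peak too is among the 20 strongest while lying about a kilobase inside the gene, with capitals for TCTCTC, the reverse complement of GAGAGA.
C30E1.9 at the second summit: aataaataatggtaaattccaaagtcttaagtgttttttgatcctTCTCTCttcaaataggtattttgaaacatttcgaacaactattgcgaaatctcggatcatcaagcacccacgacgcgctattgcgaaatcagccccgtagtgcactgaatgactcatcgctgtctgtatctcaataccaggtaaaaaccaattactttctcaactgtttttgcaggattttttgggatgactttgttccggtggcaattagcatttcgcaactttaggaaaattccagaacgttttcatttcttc

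The tts-1 gene covers 711 bp on chrX:1504131-1504841 (minus strand), as 1 unspliced transcript and 1 with an intron. Its strongest summit lay 227 bp inside the start, in the first exon of both transcripts, with an IDR signal value of 374 (rank 13). Replicate 1 gave 227 (rank 18) at 257 bp and replicate 2 gave 154 (rank 17) at 210 bp, so the replicates gave it nearly the same rank, at summits 47 bp apart. A weaker summit lay 48 bp past the 3′ end, at 758 bp from the start, with an IDR signal value of 65.5 (rank 917). Here the replicates differed: its rank was 438 in replicate 1 and 5276 in replicate 2. Replicate 1, but not replicate 2, had a further summit 58 bp inside the start with a signal value of 123 (rank 62). Within 100 bp of it, the pooled list had a summit 15 bp inside the start, at rank 13697, that did not reach the IDR set. A single pooled peak interval of 1025 bp, longer than the gene, carried all 3 pooled summits. No other gene overlapped tts-1; the ncRNA F09E10.14, of the same strand, starts 384 bp from the strongest summit on its upstream side.

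The window around the strongest tts-1 summit (chrX:1504464-1504763, minus strand, WBcel235, RefSeq) is shown for its repeats. The gene is named for a telomere-like sequence, and capitals mark GCCTAA, the reverse complement of the C. elegans telomere repeat TTAGGC.
tts-1 at the summit: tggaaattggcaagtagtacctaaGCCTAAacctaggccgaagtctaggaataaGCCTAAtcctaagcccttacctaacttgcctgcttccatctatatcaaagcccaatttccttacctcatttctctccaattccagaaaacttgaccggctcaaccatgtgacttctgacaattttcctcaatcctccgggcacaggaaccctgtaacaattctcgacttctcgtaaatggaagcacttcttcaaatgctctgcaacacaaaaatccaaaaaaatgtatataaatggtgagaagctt

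Both exact copies of the word in tts-1 lay in this window, and 0.672% of the 2082 IDR summit windows held as many on either strand. Over the whole gene the density was 2.81 per 1000 bases, against 0.388 per 1000 bases in the genome. Every 36-base word of the window was found once in the genome, so no word of that length there is shared with another place. The word was counted after the sequence had been seen.

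W05H9.3 is a single-exon ncRNA gene of 1512 bp on chrX:6252274-6253785 (plus strand), with no other annotated gene at its summits. Its strongest summit lay 83 bp inside the start with an IDR signal value of 362 (rank 14). Replicate 1 gave 205 (rank 19) and replicate 2 gave 160 (rank 15), 15 bp apart. This pair of values was the closest in order to those of tts-1. The 2 weaker IDR summits followed, at 1080 bp from the start (rank 892) and at 1674 bp, which is 163 bp past the gene's end (rank 577). Both were stronger in the order of replicate 1, with ranks 303 and 300. In replicate 2 the nearest summit to the first of these was 460 bp away, and the second had rank 4125. The next IDR summit on that side lay 711 bp past the end, outside the limit of 500 bp, at rank 1201.

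The peak at F40F9.15 lies close to the starts of several transcripts, so it cannot be given to a single gene. F40F9.15 covers 297 bp on chrV:9731015-9731311 (minus strand) within the extent of drap-1, a protein-coding gene of the opposite strand named after the human repressor subunit DRAP1. The ncRNA F40F9.14, on the plus strand, overlaps it. The summit lay 75 bp before the start of F40F9.15 and 16 bp inside the drap-1 transcript F40F9.7a.3, in its 5′ untranslated exon, with 58 bases between the starts of these opposed transcripts. Its IDR signal value was 519 (rank 8). Replicate 1 gave 336 (rank 6) and replicate 2 gave 180 (rank 10), with summits 3 bp apart. Other drap-1 transcripts start 573 and 571 bp beyond the summit and 1280 bp before it. The peaks carry no strand, so polymerase moving towards drap-1, F40F9.14 and F40F9.15 cannot be told apart here.

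The snRNA copies share every base of the gene but not their peaks. F38E11.10 lies on chrIV:9444642-9444763 (plus strand) and F38E11.11 on chrIV:9464517-9464638 (minus strand), with 19753 bases between them, and all 122 bases are identical. Identity stopped at the gene ends: the base before the start already differed, 3 bases after the end were shared, and the 100 bases before the start were 30.0% identical when set side by side without gaps.

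At F38E11.10 the IDR summit lay 59 bp inside the gene with a signal value of 336 (rank 18). Replicate 1 gave 228 (rank 17) at 100 bp and replicate 2 gave 110 (rank 35) at 14 bp. These summits were 86 bp apart, the widest spacing among the strongest summits of the loci. At F38E11.11 the IDR set, the pooled list and replicate 1 had no summit in the gene or within 500 bp, and replicate 2 had 1, outside the gene at 459 bp from its start, with a signal value of 15.9 (rank 4641). None of the 87 words of 36 bases in either copy is unique in the genome, so reads that fall wholly inside the gene fit both places. What was done with reads of several matches is not stated in the notes used here, and its part in the difference between the copies was not tested. F38E11.10 is overlapped on the opposite strand by the ncRNA F38E11.24, and the gene hsp-12.3 also lies within 500 bp of its IDR summit. F38E11.11 is overlapped on the opposite strand by the ncRNA F38E11.23 and, on its own strand, by the protein-coding gene F38E11.6.

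A family of 12 annotated snRNA genes, the pair included, was at least 80% identical to F38E11.10, and 11 of them lie on chromosome IV. The next snRNA gene outside the family reached 58.2%. Within the family 3 of 12 genes had an IDR summit, against 19.4% of all snRNA genes. A pooled summit was found at 7, against 32.6%, a summit in replicate 1 at 6, against 30.2%, and a summit in replicate 2 at 10, against 46.5%. After F38E11.10, the strongest were F32B5.9 with an IDR signal value of 170 (rank 82; 105 in replicate 1 and 149 in replicate 2) and F42C5.12 with 93.9 (rank 348; 2170 in replicate 1 and 97 in replicate 2). C53B4.9 and C53D6.16 had no summit in any list. F38E11.10 was the highest placed gene of the family in each list, but it was chosen for its strong IDR peak, so nothing is read from this. The share of its 36-base words that are unique, 0 of 87, was as low as that of F38E11.11, ZK897.2 and F07C6.5. Of the genes without a summit, C53B4.9 had 62 of 87 words unique and C53D6.16 had 75 of 82. Of those with an IDR summit, F42C5.12 had 49 of 87 words unique and F32B5.9 had 37 of 88. The part of word uniqueness in these ranks was not tested.

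**Figure D3:**
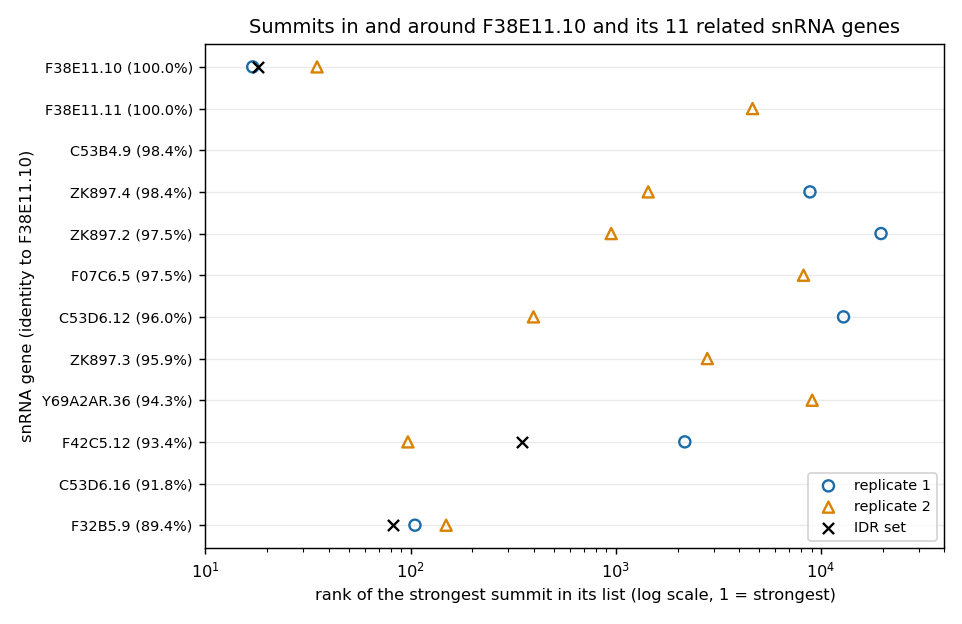
Rank of the strongest summit in the gene or within 500 bp (x axis, log scale, 1 is the strongest) in replicate 1, replicate 2 and the IDR set for each of 12 snRNA genes (y axis, ordered by identity to F38E11.10 in percent). F38E11.10 stands at ranks 17, 35 and 18, while its identical copy F38E11.11 has a single symbol, in replicate 2 at rank 4641.

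The replicates had summits at nearly the same places in these genes but did not always rank them alike. Within 100 bp of the 13 IDR summits at the loci, replicate 1 had a summit at all 13 and replicate 2 at 12 (92.3%). Over all 2082 IDR summits the shares were 93.0% in replicate 1 and 88.3% in replicate 2. Where both replicates matched, their summits lay a median of 19 bp apart at the loci, with a range of 2 to 86 bp, against 19 bp at the other 14 of the 20 strongest peaks and 34 bp over all IDR summits. The ranks in the replicates differed by a median of 1.45-fold for the 6 peaks of these loci among the 20 strongest, from 1.06-fold at tts-1 to 6.67-fold at the second C30E1.9 peak, against 1.73-fold for the other 14. For all the summits at the loci the median was 2.45-fold, against 2.84-fold over all IDR summits. The strongest IDR peaks were selected on a signal made from both replicates, so likeness of their ranks follows in part from the selection. With 1 group of 2 replicates no test over samples was possible.

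**Figure D4:**
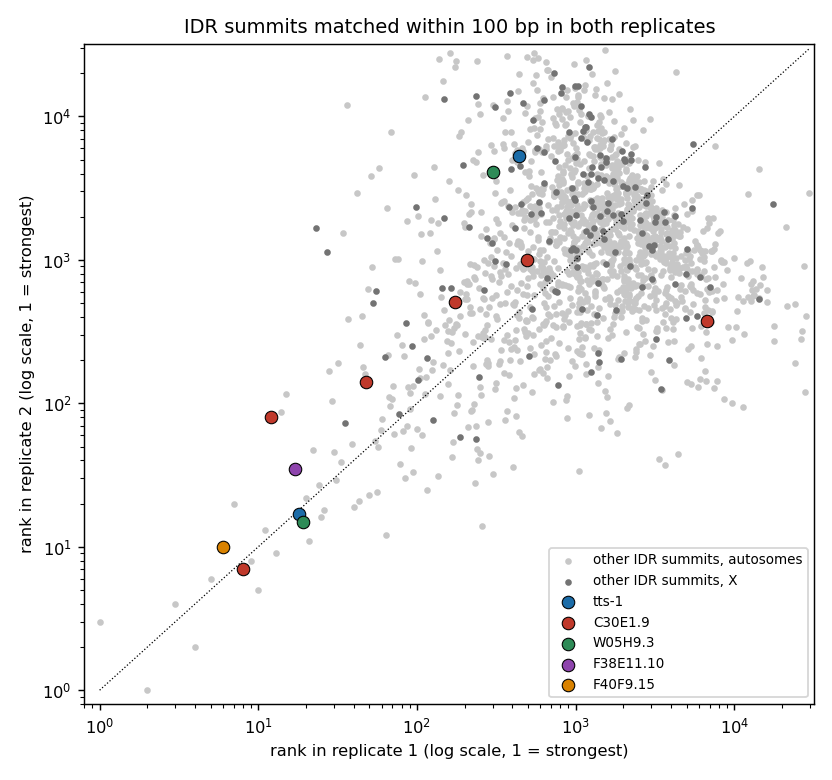
Rank in replicate 2 (y axis) against rank in replicate 1 (x axis), both on log scales, for IDR summits with a summit within 100 bp in both replicates; coloured points are summits at the non-coding genes, dark grey points other summits on X and light grey points other summits on the autosomes. The strongest summits of tts-1, W05H9.3, C30E1.9 and F40F9.15 lie near the dotted line of equal rank, and most weaker summits of the X-linked genes lie above it, which is lower in the order of replicate 2.

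The X-linked loci tts-1, C30E1.9 and W05H9.3 held the 4 strongest peaks of the X chromosome in the IDR set, the pooled list and replicate 1, and the 3 strongest in replicate 2, where the second C30E1.9 peak was the 8th on X. The 5th strongest on X in the IDR set, at the mir-54 to mir-56 microRNA genes, had rank 38 and a signal value of 228. In all, 11 of the 13 IDR summits at the loci were on X, 6 of them in C30E1.9 alone, and 9.65% of all IDR summits lay there. The loci were chosen from the strongest IDR peaks, so nothing is read from their places on X or from this count. Of the 7 weaker summits of tts-1, C30E1.9 and W05H9.3 matched in both replicates, 6 stood lower in the order of replicate 2. The median log2 ratio of ranks (replicate 2 over replicate 1) for the 7 was 1.55. The strongest summits of the same loci went the other way, with log2 ratios of -0.08 at tts-1, -0.19 at C30E1.9 and -0.34 at W05H9.3. Among all IDR summits on X matched in both replicates, those of the loci included, 109 of 163 stood lower in replicate 2 (66.9%). Their median log2 ratio was 1.04. For 1539 matched summits on the autosomes the share was 49.8% and the median -0.01. X held 14.5% of the peaks of replicate 1 and 8.78% of those of replicate 2. Replicate 2's labels name Illumina Genome Analyzer models and replicate 1's name no instrument; the part of the library or instrument in these orders was not tested.

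Base composition and repeats of the peak windows varied among the loci. In 300-base windows centred on the summit, the GC content was 49.7% at W05H9.3, 48.3% at C30E1.9, 46.0% at F40F9.15, 41.7% at tts-1 and 41.3% at F38E11.10 for the strongest summit. Over all IDR windows the median was 40%, with quartiles of 36.3% and 44.0%, and the genome had 35.4%. The first 3 were therefore above the upper quartile and the other 2 inside the quartiles. The window of the summit past the 3′ end of tts-1 had 25.7%, and 0.048% of the IDR windows had less. All 36-base words were unique in 11 of the 13 windows, against 95.3% of all IDR windows, the exceptions being F38E11.10 with 65.3% of words unique and the 3′ window of tts-1 with 94.0%.

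Short words were searched on both strands in these 13 windows and in the promoters of the 6 loci, taken as 250 bases before to 50 bases after the start. TATAAA was in 7 windows and in 4 promoters, against 24.5% of all IDR windows, 25.6% of ncRNA promoters and 37.9% of protein-coding promoters. GAGAGA was in 6 windows, and the promoters of W05H9.3, F38E11.10 and F40F9.15 had it, against 33.9% of IDR windows and 24.8% of ncRNA promoters. GTAAACA is the word bound by FOXO factors such as DAF-16, which acts downstream of DAF-2. Of the promoters, only that of tts-1 had it, on the antisense strand, against 4.33% of ncRNA promoters. This match lay inside the upstream ncRNA gene F09E10.14, so it cannot be given to tts-1 alone. GTAAACA was also in 1 window, past the 3′ end of W05H9.3, against 4.13% of IDR windows. TGATAA, a word bound by GATA factors, was in the F40F9.15 promoter and in 2 windows, against 23.5% of ncRNA promoters and 23.9% of IDR windows. AATAAA, the polyadenylation word, was in 6 windows and 2 promoters, against 48.5% of IDR windows and 46.0% of ncRNA promoters. CACGTG, an E-box, was in no window and no promoter, against 9.17% of IDR windows and 3.76% of ncRNA promoters. TATAAA was thus the word shared by the most promoters, and a match by letters is not a bound site.

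The loci differed in what surrounds them. The nearest protein-coding gene start was 11291 bp from the strongest summit of W05H9.3 (W05H9.4), farther than for 99.0% of all IDR summits and 99.5% of those on X. For C30E1.9 it was 6093 bp away (C30E1.4), farther than for 94.0% of all and 85.6% of those on X. For tts-1 the distance was 1824 bp (F09E10.1), for F40F9.15 1280 bp (drap-1, taken from the outermost start of the gene) and for F38E11.10 661 bp (F38E11.9). The median was 630 bp over all IDR summits and 1032 bp on X. Within 5000 bp of the strongest summit lay 9 other pooled summits at each of F40F9.15, W05H9.3 and F38E11.10, 5 at C30E1.9 and 3 at tts-1, against a median of 8 over all IDR summits and 6 on X. These counts include further summits of the loci themselves. All 5 at C30E1.9 lay inside that gene, and some of those at tts-1 and W05H9.3 lay in the gene or its flank.

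**Figure D5:**
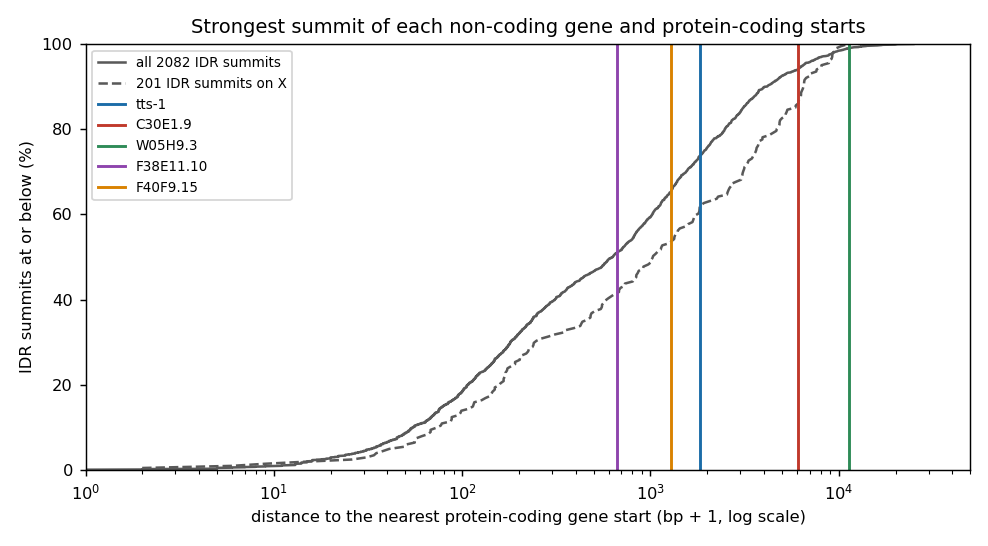
Percent of IDR summits (y axis) with a protein-coding gene start at or below a given distance in bp (x axis, log scale, distance plus 1), for all 2082 IDR summits and the 201 on X, with vertical lines for the strongest summit of each locus. W05H9.3 and C30E1.9 lie at the far right of both curves, at 11291 and 6093 bp, and F38E11.10 lies near the middle.

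Several of the peak intervals at these loci were wide. The standard width in the IDR set was 344 bp, and 8 of the 13 summits at the loci were in a wider interval, against 32 of all 2082 (1.54%). Because summits can share an interval, these were 5 of 10 distinct intervals at the loci, against 24 of 2074 in the IDR set (1.16%). Wide intervals went with strong signal in general, since 16 of the 20 strongest IDR peaks had one. The intervals of the strongest W05H9.3 summit and of the F38E11.10 summit were narrower than the standard, at 329 and 249 bp.

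The reading frames of the loci were set beside those of other non-coding transcripts. No protein-coding transcripts were compared, so the label as non-coding was not tested. The longest open reading frame had 22 codons in both tts-1 transcripts, 48 in W05H9.3, 7 in F40F9.15 and 20, 36 and 79 in C30E1.9a, C30E1.9b and C30E1.9c, while the snRNA copies had none. Over 7983 ncRNA and lincRNA transcripts the median was 6 codons, and over the 123 of 600 bases or more it was 61. All transcripts of tts-1 and W05H9.3 and the shorter ones of C30E1.9 were below that median for long transcripts, and C30E1.9c, which is far longer than the others, was above it.

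The genes whose strongest start peak stood closest to each locus in the order of both replicates were found by distance in log10 rank over the 2 replicates, leaving out genes that share the peak. W05H9.3 was the closest to tts-1, at a distance of 0.059, with ranks 19 and 15 in replicates 1 and 2. The protein-coding gene tos-1 was the closest to C30E1.9, at 0.077, with ranks 9 and 8. C30E1.9 was the closest to F40F9.15, at 0.199. For F38E11.10 the closest were 3 ncRNA genes at 1 peak, W06H8.12, W06H8.13 and W06H8.14, at 0.273, with ranks 31 and 29. With 2 replicates of 1 condition, likeness in this sense is a like place in the order of peaks and nothing more.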

How the data were processed

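AMA-1 ChIP-seq peak lists of 2 biological replicates of whole L4 larvae, 1 group, were used on build ce11. Per the notes deposited with the samples, each replicate's list was derived from alignments of the library with a control, the pooled list from both alignments, and the IDR set from both replicate lists and the pooled list. The sources used here give no aligner, peak caller, version, read filter or IDR threshold; lists on ce10 were not used. The deposited score per peak is the authors' signal value, used only for ranks and description in its own list. The −log10 q-value, also deposited, was at its maximum for all 2082 IDR peaks and was used only as an alternative. Depth is unknown, so no interval or limit from reads is given.

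A summit is the peak start plus the summit offset, and coordinates are 1-based. Summits in a gene or within 500 bp were taken, and summits within 100 bp were matched. Genes came from Ensembl release 115 (WBcel235), sequences from the RefSeq genome of that assembly. Python 3.11.15, numpy 2.4.6 and pandas 2.3.3 were used, and the summit, word and matching functions were checked on simulated data. The members and lists were chosen with earlier results of these data known, so no test was run. Genes named are the members, genes overlapping or starting at them, the 10 strongest other non-coding genes, listed named non-coding RNAs and the 3 genes most like each member; others, such as the related snRNA genes, the strongest peaks on X and the nearest protein-coding genes, were chosen after their values were seen. The TATAAA range and the telomere word were also chosen so. Sequences of the snRNA genes are not reported here. Alternatives were other flanks, peak intervals, each replicate's own strongest peaks, matching distances, windows, word lengths, merged peaks and ranking by q-value.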

Additional observations from a re-analysis of the deposited data

How the results depend on the processing

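Of 104 alternative values for 36 results, 79 were within 1.5 times the reported value. Without the flank of 500 bp, the share of genes with an IDR summit was 1.73% for ncRNA, 10.9% for snRNA, 4.36% for protein-coding genes and 3.38% for all genes except piRNA genes. The number of strongest summits with more pooled summits nearby than the median was 3 within 5000 bp and 0 within 10000 bp. The other 20 values that moved were best ranks by −log10 q-value, because ties at its maximum cover 2082 IDR, 3767 pooled, 5547 replicate 1 and 6798 replicate 2 peaks. All 21 best ranks after merging overlapping peaks were within 1.5 times. Without the flank 4 loci kept an IDR summit, since that of F40F9.15 lies before its start. With only replicate 1's or only replicate 2's strongest peaks, as many as in the IDR set, 5 loci had a summit. Ranking by the p-value column could not be run, because it holds no values. No paired analysis was possible because there is 1 group. Peaks weaker than those listed, and reads shared by identical genes, limit what can be said of F38E11.11.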

Other observations

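Among the other non-coding genes, those with the strongest peaks shared them with further annotated genes. The peaks of F40F9.15, tts-1 and F38E11.10 also had further annotated genes within 500 bp. R12E2.18 lay at the IDR peak of rank 1 together with the spliced leader gene sls-2.4, C17C3.23 at rank 2 with sls-2.2, and Y75B8A.49 at rank 10 with sls-2.8. F58G1.11 and F58G1.12 lay at rank 5 with sup-6, an snRNA gene in the annotation, and Y37A1B.330 and 2 ncRNA genes beside it at rank 12 with the microRNA gene mir-52. F40F9.14 and F09E10.14 lay at the peaks of F40F9.15 and tts-1. An IDR summit lay at 11 of 170 linc- genes (6.47%) and at 3 of 57 anr- genes (5.26%), against 4.25% of ncRNA genes and 8.18% of all genes except piRNA genes. The median lengths were 741, 710, 140 and 1257 bp in that order, so stretches of unequal length were searched and the shares are not compared. The strongest linc- peaks were at linc-72 with a signal value of 125 (rank 173) and at linc-2 with 115 (rank 207). The RNase P RNA gene rpr-1 had an IDR signal value of 81.1 (rank 519; 1972 in replicate 1 and 480 in replicate 2). The long non-coding RNA gene rncs-1 had 71.5 (rank 737; 586 in replicate 1 and 2532 in replicate 2). The gene lep-5 had 3 summits in replicate 1 and none in the other lists, and yrn-1 and mrpr-1 had none in any list.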
